A study of Mus musculus with 13 samples.

Results

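Untreated PERK −/− mouse embryonic fibroblasts (MEFs) were compared with untreated PERK WT MEFs by ribosome footprint profiling, which sequences the mRNA fragments covered by translating ribosomes. The comparison used 2 of the 13 libraries of the series, the WT control and the PERK −/− control, and asked which genes were translated at another level without PERK before any stressor was added. Genes with a mean of at least 2 TPM (footprints per coding length, scaled to the same total in every library) over the 10 MEF libraries were kept, which left 10432 of 22406 symbols. TPM values under 4 were raised to 4, and a gene was counted as differing when the 2 controls were at least 2-fold apart. The other 8 MEF libraries came from both genotypes after 1, 2, 5 and 8 h of thapsigargin (Tg), a drug that empties the calcium store of the endoplasmic reticulum (ER), and served here only as further views of the genotypes. Cells were plated at low density a day before harvest, and cycloheximide was left out of culture and buffers. Each condition was 1 library and each genotype 1 cell line, so there is no spread between replicates, no test was made, and the PERK deletion cannot be told apart from other differences between the lines. A footprint level also does not tell more mRNA from more ribosomes per mRNA, and in such bulk samples fewer cells of a type cannot be told apart from fewer footprints per cell.

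PERK is a kinase in the ER membrane that senses unfolded proteins. It phosphorylates the initiation factor eIF2α, which lowers most protein synthesis and favours translation of a few mRNAs such as that of the transcription factor ATF4, whose targets serve amino acid supply and stress adaptation. The IRE1 and ATF6 arms of the unfolded protein response act beside it, and PKR (Eif2ak2), GCN2 and HRI phosphorylate the same site of eIF2α in response to double-stranded RNA, amino acid shortage and heme or mitochondrial stress.

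The WT control held 11949174 expected counts and the PERK −/− control 6735073, which puts the limit of 3 counts at 0.251 CPM (counts scaled to the same library total) in WT and 0.445 CPM in PERK −/− MEFs. Eif2ak3, which encodes PERK (chr6:70844484-70905241, mm10), had 254 expected counts in the WT control and 74 in the PERK −/− control, or 21.3 and 11 CPM. The log2 ratio of these counts was −0.95, with a 95% interval of −1.35 to −0.57 (exact conditional Clopper-Pearson interval, as for all intervals of counts below, which cover counting error only). Its TPM went the other way, with 6.03 in WT and 11.2 in PERK −/− MEFs, so the TPM of Eif2ak3 is not a check of the label. Of 16 fibroblast markers, 14 passed the filter, and Col1a1 (1400 and 2207 TPM in the WT and PERK −/− control), Vim (2977 and 2581) and Fn1 (672 and 589) were high in both. Of other cell types, 7 of 9 endothelial, 5 of 10 macrophage and leukocyte and 5 of 7 pluripotent markers had 0 counts in both controls. Among these were Pecam1, Cdh5 and Tie1, then Tyrobp, Lyz2 and Itgam, and Pou5f1 and Zfp42. Other markers were read at low levels, such as Cd68 (12 and 17 counts), Csf1r (17 and 15) and Sox2 (0 and 19). The filter was passed by 2 endothelial markers (summed level of the list 8.74 and 17.0 TPM) and 1 leukocyte marker (7.47 and 9.45 TPM for its list). The WT library at 1 h of Tg stood apart. Genes near absent in WT MEFs (under 2 TPM) and at 15 TPM or more in every PERK −/− library lay in it at a median of 25.2% of their PERK −/− mean (8 genes, 13.5 to 65.8%), against 0.186% in the WT control and up to 2.68% in the other WT libraries. These genes were chosen on their values, so the shares are a description, and counts that use the 1 h pair are given below with and without it.

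Most genes were close in the 2 controls, and those that differed were more often higher in PERK −/− MEFs. At least 2-fold higher were 630 genes (6.04% of those compared) and at least 2-fold lower 205 (1.97%), whereas 8195 (78.6%) were within 1.5-fold. The median log2 ratio (PERK −/− over WT) was 0.08, with quartiles of −0.14 and 0.41. A 4-fold difference was passed by 101 genes upward and 33 downward. The counting interval lay wholly beyond 2-fold for 340 of the higher and 110 of the lower genes, and it left out a ratio of 1 for 627 and 204. Rescaling the libraries with TMM factors lowered the log2 ratios by a median of 0.16 and gave 470 higher and 289 lower genes, so that 61.9% of the differing genes were higher in place of 75.4%. Beside the thresholds lay genes at 2.00-fold and at 1.999-fold on the higher side. The WT control was under the floor of 4 TPM for 179 of the higher genes and the PERK −/− control for 59 of the lower, and the folds of these genes understate the difference.

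**Figure D1:**
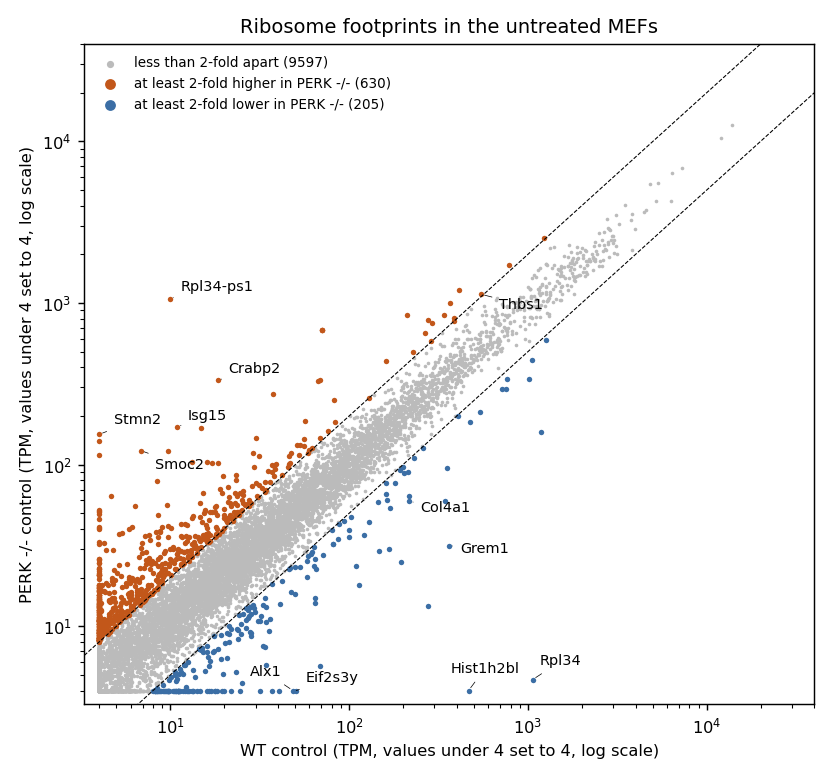
TPM of the 10432 compared genes in the WT control (horizontal) and the PERK −/− control (vertical), both on log scales with values under 4 set to 4; each point is a gene, and the dashed lines mark 2-fold. The 630 higher genes (orange) lie mostly at low WT levels, Rpl34 and Rpl34-ps1 lie far off on opposite sides, and the most abundant genes keep near the diagonal.

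The 8 Tg libraries took no part in the choice of these genes except through the expression filter. Of the 630 higher genes, 318 (50.5%) were higher in PERK −/− MEFs also in each of the 4 pairs matched by time of Tg, against 24.3% of all compared genes, and 69 were at least 2-fold higher in all 4 pairs (0.968% of all genes were). For 254 of them all 5 PERK −/− values lay above all 5 WT values, where 9.09% of all genes did. These values include the 2 controls on which the genes were chosen, so the rule set part of this outcome. The share of all genes is thus no fair reference for called genes, here and wherever their overlap is described below. The lower genes kept their side more often, with 138 of 205 (67.3%) below in all 4 pairs against 19.7% of all genes, 53 at least 2-fold below in all 4 (1.31% of all) and 113 with no overlap of the 5 values (5.53% of all). Without the 1 h pair, 368 higher genes (58.4%, against 28.8% of all) and 151 lower genes (73.7%, against 25.9%) kept their side, and 306 and 132 had no overlap (12.0% and 8.03% of all). The median log2 ratio of the higher genes was 0.37, 0.44, 0.67 and 0.95 at 1, 2, 5 and 8 h, and that of the lower genes −0.84, −1.24, −0.95 and −0.91.

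The most extreme pair were 2 copies of a single ribosomal protein gene. Rpl34, a protein of the large ribosomal subunit, is encoded on chromosome 3 (chr3:130726827-130730398, mm10, minus strand), and Rpl34-ps1 is an intronless copy on the plus strand of chromosome 6 (chr6:71124589-71125001), 280 kb from the start of Eif2ak3. Over the 351 coding bases compared, the copies differ at 2, written from Rpl34 to Rpl34-ps1 as T132C and C318G and counted from the A of the start codon. Both lie inside the part of the coding sequence left after the authors' clipping, and only footprints over them can tell the copies apart. The 31 bases around each are shown in the direction of the gene, from GENCODE transcripts of GRCm38, with the differing base in capitals; those of Rpl34-ps1 lie at chr6:71124726-71124756 and chr6:71124912-71124942.
Rpl34, base 132: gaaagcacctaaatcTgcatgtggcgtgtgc
Rpl34-ps1, base 132: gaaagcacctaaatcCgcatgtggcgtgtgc
Rpl34, base 318: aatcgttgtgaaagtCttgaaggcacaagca
Rpl34-ps1, base 318: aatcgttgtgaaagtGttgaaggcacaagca

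Rpl34 had 1063 TPM (3635 counts) in the WT control and 4.68 TPM (9 counts) in the PERK −/− control, 227-fold lower. Rpl34-ps1 had 9.91 TPM (34 counts) and 1064 TPM (2048 counts), 107-fold higher. The sum over both copies was 1072 TPM in WT and 1069 in PERK −/− MEFs, so that the 2 copies lay far apart in opposite directions and their total did not. The share of these counts assigned to Rpl34-ps1 was 0.892 to 2.33% in the WT control and at 2, 5 and 8 h of Tg, 97.2 to 100% in the 5 PERK −/− libraries, and 35.1% in WT at 1 h. In untreated NIH3T3 cells, another mouse fibroblast line quantified in a table of its own, it was 100%.

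**Figure D2:**
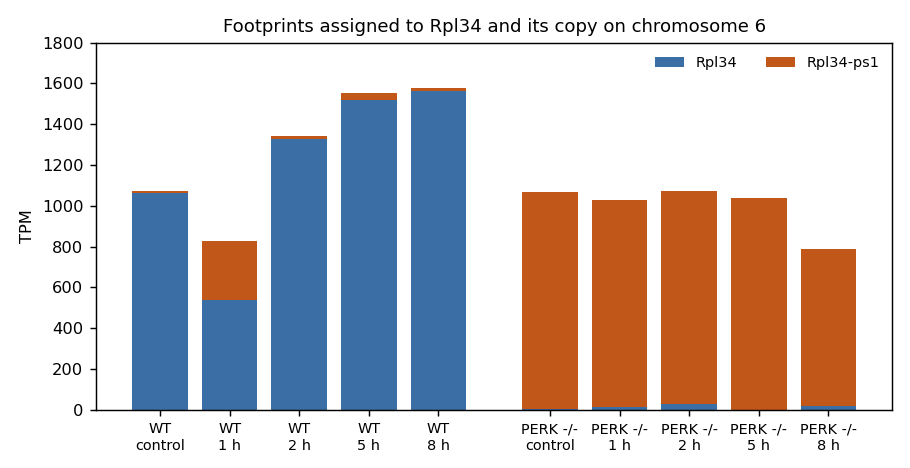
TPM assigned to Rpl34 (blue) and to Rpl34-ps1 (orange), stacked, in each of the 5 WT and 5 PERK −/− libraries (1 bar per library, no replicates). The WT bars are almost all Rpl34, the PERK −/− bars almost all Rpl34-ps1, and the WT bar at 1 h of Tg holds 292 TPM of Rpl34-ps1 beside 537 TPM of Rpl34.

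Other differing genes also had a near-identical copy among the genes with a coding sequence. A match of at least 95% identity over at least 80% of the shorter sequence was found for 44 of them (32 higher and 12 lower), and their values are uncertain because the counting could split footprints between copies. Gm4737 (at least 599-fold higher by the limit of 3 counts, with 0 counts in WT and 1013 in PERK −/− MEFs) matches Ahcy, which makes adenosine from S-adenosylhomocysteine, and the 2 together had 288 TPM in WT and 270 in PERK −/− MEFs. Gm7429 (276 and 13.3 TPM) matches the ribosomal protein gene Rpl30, with a sum of 2061 and 1897 TPM. Tdg-ps (0 and 224 counts) matches Tdg, a DNA glycosylase, with a sum of 84.4 and 91.7 TPM. In each of these 3 pairs, chosen after values were seen, the summed values lay close where the single symbols lay far apart. In others the sum stayed apart, as for Hspa1a and Hspa1b, inducible Hsp70 chaperones (27.6 and 76.9 TPM), Apol9a and Apol9b (7.06 and 25.9), and Cdh11, a mesenchymal cadherin, with Gm21811 (185 and 83.9). Histone genes of clusters with near-identical members went in both directions, with Hist1h2bl at 1755 and 0 counts, Hist1h2ad at 1180 and 159 TPM, Hist1h4i at 68.9 and 5.71 TPM, and Hist1h2ag, Hist1h2ao and Hist1h2ap at the same 70.3 and 678 TPM. Hist1h2ad and Hist1h2ag summed to 1250 and 837 TPM, but Hist1h2ag and Hist1h2ao to 141 and 1355 TPM. The direction of such a sum thus depended on which of these near-identical copies were taken. Of 74 compared histone symbols, 7 were higher (9.46%, against 6.04% of all genes) and 4 lower (5.41%, against 1.97%), and their median log2 ratio was 0.16.

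Interferon-stimulated genes were the list with the largest share of higher members of all lists examined. Interferons act through receptors on the cell surface, and a transcription factor complex that includes STAT2 and IRF9 then binds interferon-stimulated response elements (ISREs) in the promoters of antiviral genes. Of 59 such genes measured, 41 passed the filter, 23 of these (56.1%, against 6.04% of all genes) were at least 2-fold higher in the PERK −/− control, and 0 were lower. Their median log2 ratio was 1.08 (order-statistic 95% interval over genes 0.85 to 1.53), against 0.08 over all genes. With TMM factors 19 of the 41 were higher and 0 lower, and with the threshold at 3-fold 13 were. The filter averages both genotypes, so members low in WT MEFs could pass it through the PERK −/− libraries. Without the filter 23 of 59 were higher and 0 lower, with a median of 0.67, where 630 of 22406 symbols were higher.

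The response element was looked for as GAAA, any 2 bases and GAAA, on both strands, in the 250 bases before each RefSeq transcription start of GRCm38.p6, with overlapping matches counted. It was present in 14 of the 35 compared interferon-stimulated genes with a promoter in the table (40.0%) and in 2.97% of 8387 compared genes. Among the list's members it was found in 6 of 18 that were at least 2-fold higher and in 8 of 17 that were not. Among the higher genes outside the list it was found in 26 of 489 (5.32%), against 2.81% of all compared genes outside it. A match is shown for the 6 higher members and for B2m, whose level was near equal in the controls, in the direction of the gene with the motif in capitals. These are the matches nearest the start, except in Oas1a. They lie at chr4:156200855-156200904 (Isg15, minus strand), chr19:34640784-34640833 (Ifit1, plus), chr8:71537567-71537616 (Bst2, minus), chr5:120907526-120907565 (Oas1a, minus), chr10:128270256-128270305 (Stat2, plus), chr11:58199502-58199551 (Igtp, plus) and chr2:122147528-122147577 (B2m, plus). Isg15, Bst2, Ifit1 and Oas1a hold further matches, and 1 of them overlaps the one in capitals in Isg15, in Bst2 and in Oas1a. In Oas1a this overlapping match (GAAACTGAAA) lies nearer the start and runs from the capitals into the bases after them.
Isg15: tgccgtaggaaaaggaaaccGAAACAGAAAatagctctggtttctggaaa
Ifit1: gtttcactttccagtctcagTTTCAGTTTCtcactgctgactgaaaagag
Bst2: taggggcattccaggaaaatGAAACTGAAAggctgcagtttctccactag
Oas1a: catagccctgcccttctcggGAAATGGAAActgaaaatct
Stat2: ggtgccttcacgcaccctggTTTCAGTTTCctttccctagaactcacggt
Igtp: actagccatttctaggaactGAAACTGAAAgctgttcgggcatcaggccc
B2m: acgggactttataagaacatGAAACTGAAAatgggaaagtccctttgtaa

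Isg15, a ubiquitin-like modifier, had 10.9 TPM (56 counts) in the WT control and 171 TPM (494 counts) in the PERK −/− control, 15.7-fold higher (log2 ratio of counts 3.97, interval 3.57 to 4.39). Under Tg its WT values were 35.8, 24.8, 32.0 and 40.6 TPM at 1, 2, 5 and 8 h and its PERK −/− values 52.3, 57.6, 114 and 99.4 TPM. The 5 PERK −/− values thus lay above the 5 WT values, and the controls were farther apart than any Tg pair. Usp18, the protease that removes ISG15 and dampens the receptor, had 4 counts in WT and 145 in PERK −/− MEFs (0.3 and 19.6 TPM, interval of the log2 ratio of counts 4.62 to 7.90). Irf9 and Stat2, which bind the ISRE together, were higher too, at 5.35 and 37.7 TPM and at 6.66 and 19.3 TPM.

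Antiviral effectors followed the same direction. Ifi27 had 14.8 and 169 TPM, Bst2 (tetherin, which holds budding virus at the cell surface) 37.4 and 273, and Ifitm3, which blocks viral entry, 210 and 842. Ddx58, which encodes the RNA sensor RIG-I, had 7.32 and 28.7 TPM. Several members were near absent from WT MEFs. Oas1a, a synthetase that activates RNase L, had 1 count in WT and 134 in PERK −/− MEFs (log2 ratio of counts 7.89, interval 5.39 to 13.21; its copy Oas1g had 0 and 23), and Ifi44 had 0 and 111 counts, at least 65.6-fold higher by the limit of 3 counts. Igtp, a GTPase, had 3 and 71 counts (log2 ratio 5.39, interval 3.79 to 7.70), and its floored TPM were under 2-fold apart with TMM factors, DESeq2 size factors or the GC trend removed.

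Members that serve antigen presentation lay on both sides of 2-fold. H2-K1, a class I heavy chain, had 68.5 and 146 TPM (2.14-fold, and under 2-fold with TMM factors, DESeq2 size factors or the GC trend removed), H2-Q4 6.38 and 17.7 and Psmb8 of the immunoproteasome 2.61 and 12.2, whereas H2-D1 (86.0 and 155 TPM, 1.8-fold), Tapbp (41.3 and 80.3 TPM, 1.95-fold) and B2m, the light chain (2117 and 2085 TPM), stayed under 2-fold. Irf1 was at 25.3 and 27.6 TPM. In 14 of the 41 genes all 5 PERK −/− values lay above all 5 WT values (9.09% of all genes), and in 23 without the 1 h pair (12.0%). The summed level of all 59 genes was 3034 TPM in the WT control and 4942 in the PERK −/− control. Of the 18 members that did not pass the filter, Irf7 had 0 and 62 counts and Parp14 16 and 119, the largest differences in counts among them. Others were absent or close, such as Oas3 and Gbp4 with 0 counts in both, Zbp1 with 2 and 2 and Ifit3 with 8 and 12.

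**Figure D3:**
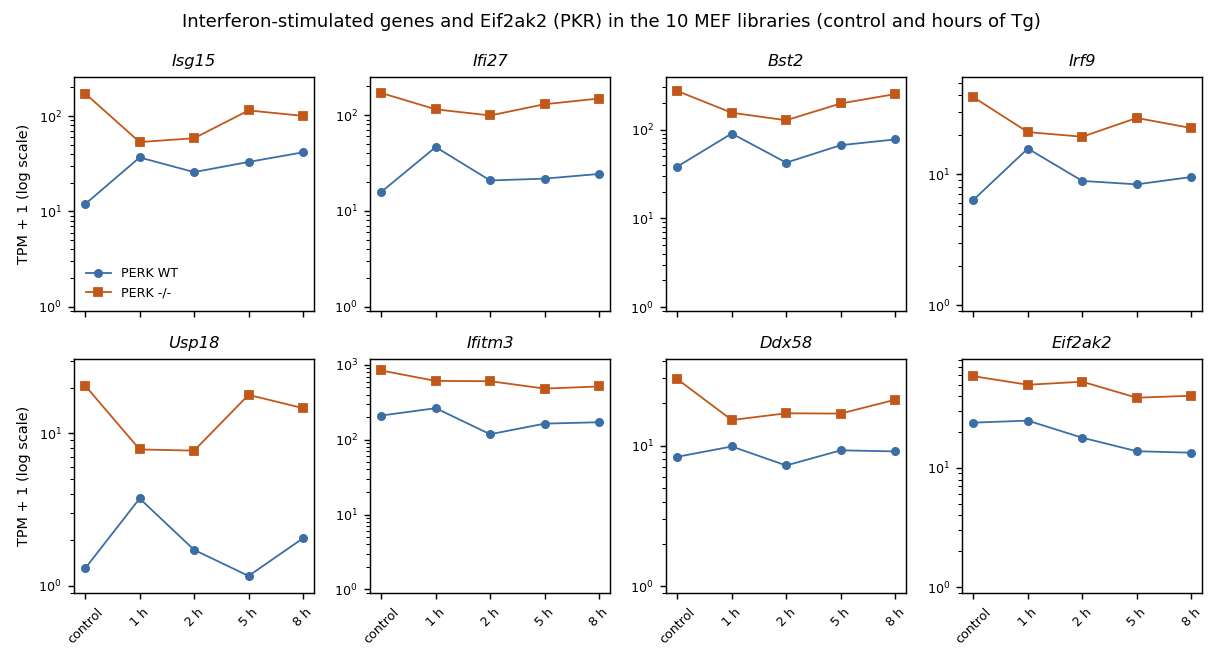
TPM plus 1 on a log scale for 7 interferon-stimulated genes and Eif2ak2 in the control and after 1, 2, 5 and 8 h of Tg; each point is 1 library, WT in blue and PERK −/− in orange. In each panel the 5 PERK −/− points lie above the 5 WT points, as in 9.09% of all genes. The WT point at 1 h is the highest WT point for Ifi27, Bst2, Irf9, Usp18, Ifitm3, Ddx58 and Eif2ak2.

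Among the kinases and phosphatases that set eIF2α phosphorylation, Eif2ak2 differed. It encodes PKR, which is itself induced by interferon, and had 23 TPM (444 counts) in the WT control and 57.9 TPM (621 counts) in the PERK −/− control, 2.51-fold higher (interval of the log2 ratio of counts 1.13 to 1.49). Its WT values under Tg were 12.4 to 24.0 TPM and its PERK −/− values 37.9 to 51.9, so the genotypes did not overlap (9.09% of all genes lay above in this way). It was the only one of 20 genes of the PERK and eIF2α list past 2-fold, with Ddit3 of this list just under 2-fold lower. The median of the 20 was −0.11. Eif2s1, eIF2α itself, had 354 and 246 TPM.

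Genes downstream of ATF4 were not lower as a group in the untreated PERK −/− MEFs. Atf4 had 34.5 and 41.4 TPM (429 and 289 counts, interval of the log2 ratio 0.04 to 0.48). Ddit3, which encodes the pro-apoptotic factor CHOP, had 13.8 and 6.91 TPM, from 82 and 21 counts, just under 2-fold lower (interval of the log2 ratio of counts −1.90 to −0.43). Of 25 ATF4-linked regulators, a list without Ddit3, 5 were higher (20%, against 6.04% of all genes) and 0 lower. Their median was 0.17, and −0.01 once the trend of the ratios with GC content was removed. The 5 higher were Nupr1 (30.2 and 147 TPM), Klhl24 (5.86 and 19.7), Trib3 (4.12 and 12.5), Ddit4 (22.8 and 51.1) and Cebpb (59.4 and 124), the last encoding a leucine zipper factor that pairs with CHOP. Cebpb was under 2-fold with TMM factors, DESeq2 size factors or the GC trend removed, and Ddit4 with the GC trend removed. The order did not hold under Tg, where Trib3, Ddit4 and Cebpb were lower in PERK −/− MEFs in all 4 pairs.

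The enzymes of amino acid supply stayed under 2-fold, with more of them lower than higher in PERK −/− MEFs. None of 21 amino acid synthesis enzymes and none of 20 cytosolic aminoacyl-tRNA synthetases were 2-fold apart, with medians of −0.07 and −0.11 (−0.22 and −0.27 with TMM factors). Below a ratio of 1 lay 12 of the 21 and 14 of the 20. All 5 PERK −/− values lay below all 5 WT values for 1 and 7 of them (5.53% of all genes). Without the 1 h pair this held for 5 and 9 (8.03% of all genes). Phgdh, the first enzyme of serine synthesis, had 380 and 276 TPM, Asns, asparagine synthetase, 67.5 and 44.3, and Eprs, which charges glutamate and proline, 119 and 87.3. Among 18 amino acid transporters 2 were higher (11.1%, against 6.04% of all genes) and 1 lower (5.56%, against 1.97%). Slc1a3, a glutamate carrier (3.86 and 26.2 TPM), and Slc6a9, a glycine carrier (7.80 and 16.1), were higher and Slc38a4 (202 and 89.2) was lower. Slc6a9 was under 2-fold with TMM factors, DESeq2 size factors or the GC trend removed.

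ER chaperones and degradation factors lay slightly higher in PERK −/− MEFs. The median log2 ratio was 0.25 (0.21 to 0.43) over 32 chaperones and folding enzymes and 0.34 (0.15 to 0.58) over 21 genes of ER-associated degradation, and with TMM factors these were 0.10 and 0.18. Hspa5 (BiP, the main luminal Hsp70) had 1357 and 1646 TPM, Hsp90b1 1731 and 2065, and Calr, a lectin chaperone that binds calcium, 3468 and 4038. At least 2-fold higher were 2 of the 32 (6.25%) and 2 of the 21 (9.52%), against 6.04% of all genes, and 0 were lower. They were Creld1 (9.94 and 26.3 TPM), Ero1lb, an oxidase of disulfide formation (4.32 and 10.3), and the mannosidase-like proteins Edem1 (14.2 and 30.5) and Edem2 (7.63 and 15.5), of which Edem1 and Edem2 were under 2-fold with TMM factors. None of 11 genes of the IRE1 and ATF6 arms differed, with Xbp1 at 29.2 and 34.5 TPM and Atf6 at 33.0 and 27.9.

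**Figure D4:**
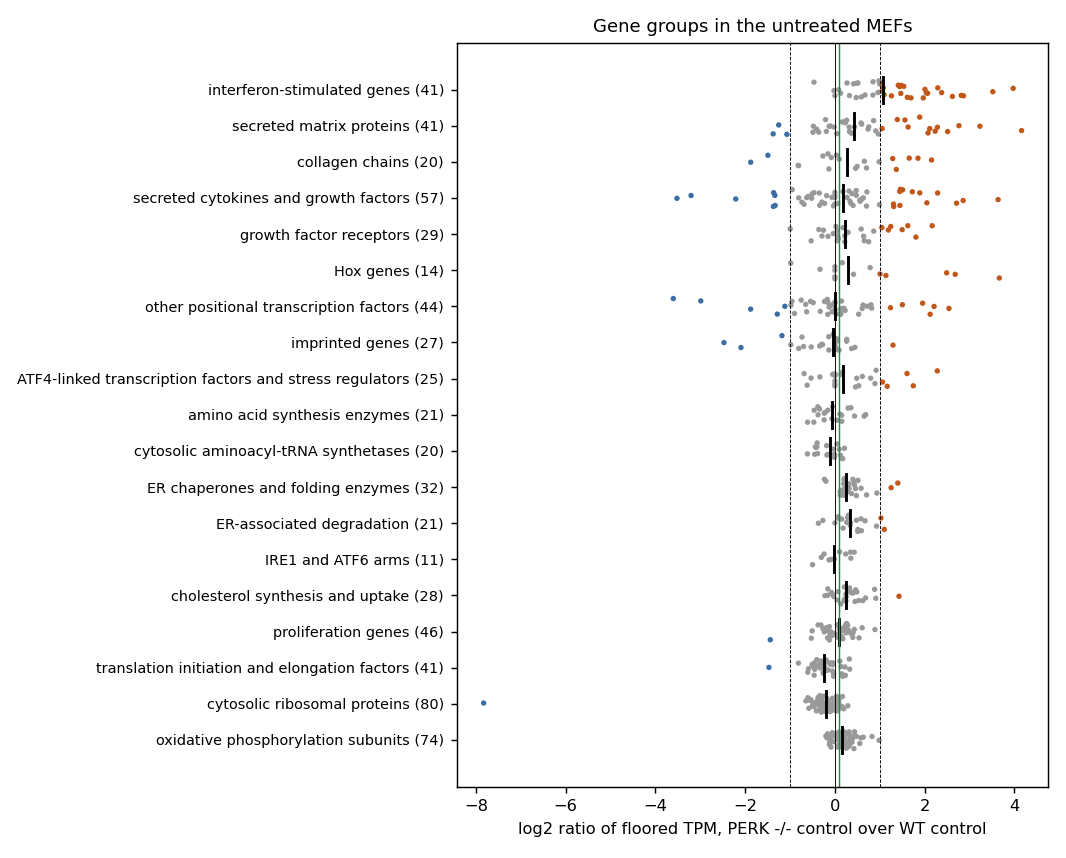
Log2 ratio of floored TPM (PERK −/− control over WT control, horizontal) for the members of 19 gene groups, with the number compared in brackets; each point is a gene, orange and blue beyond 2-fold (dashed), black bars are group medians and the green line is the median of all genes, 0.08. The bar of the interferon-stimulated genes lies at 1.08, and the amino acid synthesis, tRNA synthetase, ribosomal and respiratory groups hold no gene past 2-fold except Rpl34.

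Transcription factors that mark body position separated the lines. Hox genes record position along the body and limb axes, and fibroblasts keep this pattern in culture. Of 39 Hox genes, 14 passed the filter, and 5 of these (35.7%, against 6.04% of all genes) were higher in the PERK −/− control and 0 lower. They were Hoxa10 (1.17 and 50.7 TPM), Hoxa11 (1.00 and 25.6), Hoxd13 (0.250 and 22.5, from 3 and 152 counts, log2 ratio 6.49, interval 4.92 to 8.78), Hoxa7 (9.67 and 21.3) and Hoxa9 (3.42 and 8.03), and in each the 5 PERK −/− values lay above the 5 WT values, as in 9.09% of all genes. With TMM factors 3 were higher and 1 lower, and Hoxa7 and Hoxa9 were under 2-fold. Without the filter 5 of 39 were higher and 0 lower, with a median log2 ratio of 0. Members of the B cluster leaned the other way without passing 2-fold in floored TPM, with 68 and 6 counts for Hoxb9, 33 and 0 for Hoxb6 and 31 and 4 for Hoxb8.

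Other positional factors went in both directions, 6 of 44 higher (13.6%, against 6.04% of all genes) and 5 lower (11.4%, against 1.97%). Higher were Lhx9 (9.63 and 56.1 TPM), Tbx15 (8.93 and 41.3), Lmx1b, which specifies the dorsal limb (3 and 126 counts, log2 ratio 6.22, interval 4.64 to 8.52), Gata3 (4.24 and 16.4 TPM), Twist2 (17.9 and 50.7) and Foxc1 (6.54 and 15.4). Lower were Alx1, a factor of facial mesenchyme (48.5 and 2.62 TPM, 12.1-fold), Pax3 of neural crest and somite (31.8 and 1.63), Alx4 (9.74 and 0.99), Irx5 (8.67 and 3.93) and Meox1 of the somite (128 and 0 counts, at least 24.0-fold). The 5 lower factors had no overlap between the genotypes in the 10 libraries (5.53% of all genes lay below in this way), and neither had Lhx9, Tbx15, Lmx1b and Twist2 (9.09% of all lay above).

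Y-linked genes had at most a few counts in PERK −/− MEFs. Eif2s3y, a Y-linked copy of the gene for eIF2γ, had 853 counts (50.6 TPM) in the WT control and 0 in the PERK −/− control, at least 160-fold lower by the limit of 3 counts. Ddx3y, an RNA helicase, had 989 counts and 1 (log2 ratio −9.12, interval −14.43 to −6.64), Uty 227 and 4, and Kdm5d 149 and 0. Under Tg the WT values of Eif2s3y were 37.2 to 54.6 TPM and its PERK −/− values 0 to 0.650. Of 27 imprinted genes, 1 was higher (3.70%, against 6.04% of all genes) and 3 were lower (11.1%, against 1.97%). Cd81 (265 and 651 TPM) was higher, and Slc38a4, Cdkn1c, an inhibitor of cyclin-dependent kinases (64.1 and 15), and Nnat (168 and 30.2) were lower.

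**Figure D5:**
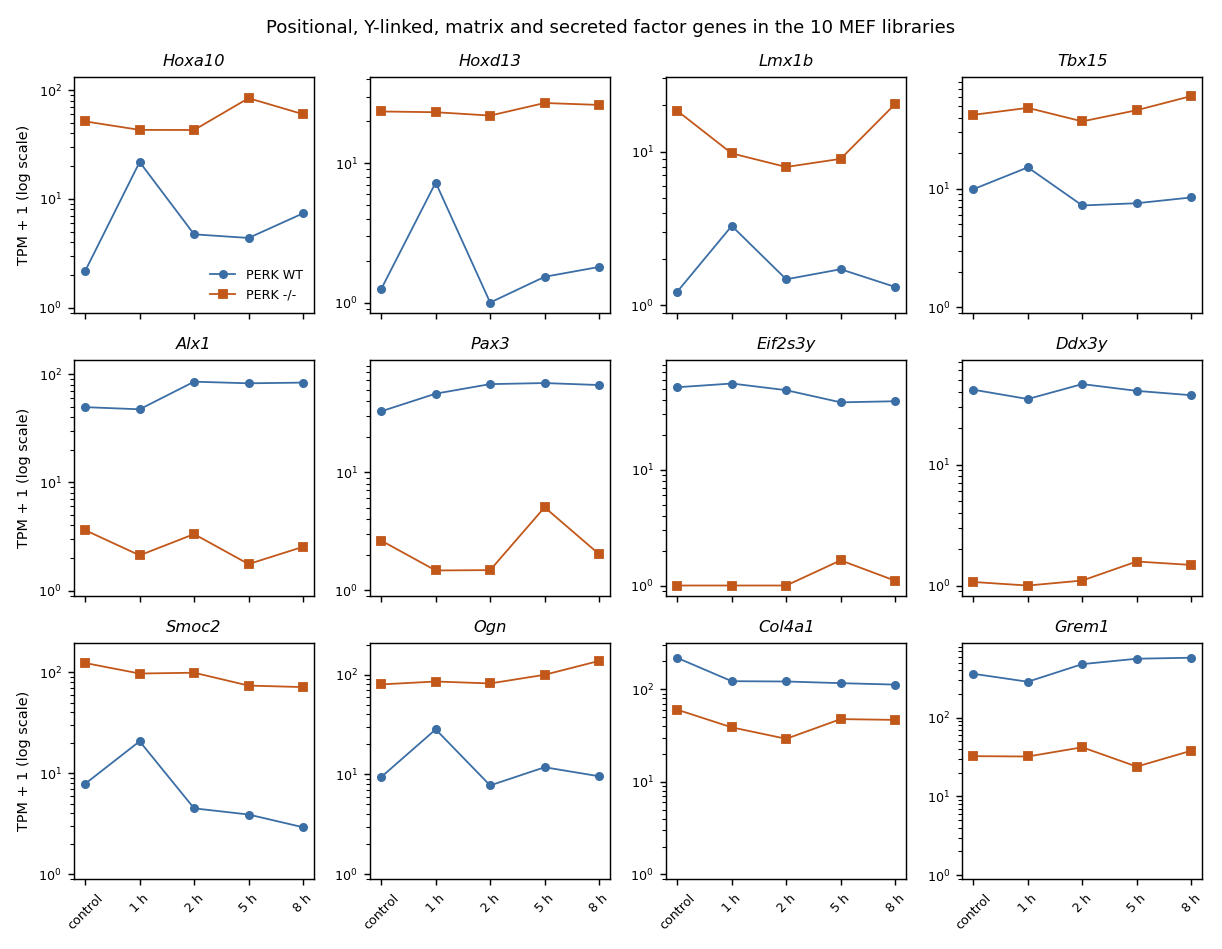
TPM plus 1 on a log scale for positional, Y-linked, matrix and secreted factor genes in the control and after 1, 2, 5 and 8 h of Tg; each point is 1 library, WT in blue and PERK −/− in orange. The 2 lines do not overlap in any of the 12 panels (of all genes, 9.09% lay above and 5.53% below in this way). For Hoxa10, Hoxd13, Lmx1b, Tbx15, Smoc2 and Ogn the WT point at 1 h is the WT point nearest to PERK −/−.

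The extracellular matrix differed in kind. Of 41 secreted matrix proteins compared, 13 were higher in the PERK −/− control (31.7%, against 6.04% of all genes) and 3 lower (7.32%, against 1.97%), with a median of 0.44 against 0.08 over all genes. Without the filter these were 13 and 3 of 49, with a median of 0.26. Higher were the small leucine-rich proteoglycans Ogn (8.42 and 79.0 TPM), Aspn (8.53 and 48.6) and Fmod (1 and 131 counts, log2 ratio 7.86, interval 5.36 to 13.18), which sit on collagen fibrils. Smoc2, which binds growth factors in the matrix, had 6.84 and 122 TPM (17.9-fold), and Mgp, an inhibitor of calcification, 68.6 and 334. Laminin chains split, with Lama5 (6.95 and 32.7 TPM) and Lamb2 (18 and 55.6) higher and Lamb1 (232 and 110) lower. Thbs1, the most heavily read of the higher members, had 546 and 1133 TPM from 24224 and 28214 counts, and was under 2-fold with TMM factors, DESeq2 size factors or the GC trend removed.

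Lower with Lamb1 were Tnc, tenascin-C (474 and 183 TPM), and Ctgf, a matricellular target of TGF-β and YAP (1058 and 444). Among 20 collagen chains, 5 were higher (25%, against 6.04% of all genes) and 2 lower (10%, against 1.97%). Without the filter these were 5 and 2 of 44. Of collagen VI, 3 chains were higher, with Col6a1 at 37.1 and 90.5 TPM, Col6a2 at 13.4 and 48.4 and Col6a3 at 6.86 and 30.5, and its other chains were under the filter. Col3a1 (55.8 and 144 TPM) and Col10a1 (0.320 and 12.6) were higher too. Of the basement membrane collagen IV, whose other chains were under the filter or under 2-fold, 2 chains were lower. They were Col4a1 at 217 and 59.2 TPM and Col4a2 at 100 and 35.6. These stayed lower with no overlap across the 10 libraries (5.53% of all genes lay below in this way). The chains of collagen I, Col1a1 and Col1a2 (900 and 921 TPM), stayed within 2-fold. Lox, which crosslinks collagen, had 340 and 838 TPM and Loxl4 9.76 and 41.7, while Loxl2 had 160 and 77.2 (with its copy Gm21451 160 and 92.8, which is under 2-fold). Among 24 proteases and inhibitors, 3 were higher (12.5%, against 6.04% of all genes) and 3 lower (12.5%, against 1.97%). Ctsk, a collagen-degrading cathepsin (1.54 and 39.9 TPM), Adamts5 (4.83 and 22.4) and Serpine2 (6.02 and 15.8) were higher, and Mmp2 (194 and 92.7), Mmp9 (11.2 and 1.29) and Serpinf1 (354 and 94.9) lower. Of 10 integrin subunits, 2 were higher (20%, against 6.04% of all genes) and 0 lower. The 2 were Itga11, which pairs to bind collagen (0.33 and 9.21 TPM), and Itgb3 (4.67 and 10.5). Contractile and actin-bundling genes lay lower, with 17 of 24 below a ratio of 1 and a median of −0.31. Of the 24, Zyx of focal adhesions (404 and 199 TPM) was past 2-fold on the lower side (4.17%, against 1.97% of all genes). Cnn1, calponin (20.8 and 43.9), was past 2-fold on the higher side (4.17%, against 6.04%). Cnn1 was under 2-fold with TMM factors, DESeq2 size factors or the GC trend removed, and Itgb3 with the GC trend removed.

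Secreted signals went both ways. Of 57 cytokines and growth factors, 13 were higher (22.8%, against 6.04% of all genes) and 7 lower (12.3%, against 1.97%). Higher were the chemokines Cxcl5 (0 and 112 counts, at least 66.2-fold) and Cxcl14 (5.14 and 37.2 TPM), the WNT antagonist Sfrp2 (16.0 and 105), Ptn, a heparin-binding growth factor (67.2 and 328), and Bmp4 (1 and 91 counts, log2 ratio 7.33, interval 4.82 to 12.65). Among the lower genes were Grem1, an antagonist of BMPs (362 and 31.5 TPM, 11.5-fold), Mdk, which is related to Ptn (36.9 and 1.65), Igfbp2 (109 and 23.6), Igfbp7 (756 and 294), Dkk3 (81.3 and 32.2) and Nrg1 (24.0 and 9.54). Ptn and Mdk, 2 members of a family, thus went opposite ways, and neither overlapped between genotypes in the 10 libraries (9.09% of all genes lay above and 5.53% below in this way). Mdk was under 2-fold when CPM took the place of TPM with the same floor.

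Of 29 growth factor and cytokine receptors, 7 were higher (24.1%, against 6.04% of all genes) and 0 lower. They were Fgfr2 (2.82 and 18 TPM), Osmr (7.35 and 25.7), Tnfrsf11b, the decoy receptor of RANKL (17.9 and 55.1), Tgfbr3 (6.68 and 18.9), Tnfrsf1b (7.52 and 17.8), Tnfrsf1a (21.5 and 48.9) and Pdgfra (0.270 and 8.26). With the GC trend removed Tnfrsf1a and Pdgfra were under 2-fold in floored TPM, and Pdgfra also with TMM factors or DESeq2 size factors. Pdgfra is also a fibroblast marker, and Thy1, another, was lower (259 and 127 TPM).

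The remaining genes with the largest folds held markers of several lineages. Stmn2, a tubulin-binding protein of neurons, had 3.66 and 154 TPM (38.5-fold higher), Anxa8 2.61 and 140, Crabp2, which carries retinoic acid to its receptor, 18.4 and 332, Sfn (14-3-3σ) 1.06 and 52.3, and Aqp1, a water channel, 9.65 and 122. Pon3 (2.38 and 45.8 TPM) and Coch (3 and 468 counts, log2 ratio 8.11, interval 6.56 to 10.40) were also higher. All 7 were without overlap in the 10 libraries, where 9.09% of all genes lay above in this way. The 7 were chosen on their ratio in the controls, which are among these libraries. Gm5601 had 2.99 and 51.4 TPM in the controls but overlapped under Tg. On the lower side were Ank, a membrane protein of pyrophosphate export (196 and 24.8 TPM), Lrrc15 (114 and 18), Ucp2, a mitochondrial carrier (24.6 and 0.980), and Tmem47 (34.2 and 5.72), and Gm6570 (344 and 59.9) overlapped under Tg.

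Of neural markers, Map2 (6.08 and 41.1 TPM) was higher and Tubb3 (63.4 and 31.1) and Nes (26.5 and 10.9) lower, while 7 of the 10 were under the filter. Of epithelial keratins, Krt19 (7.72 and 34.1 TPM) was higher and Krt18 (13.4 and 5.35) lower. Fabp4, an adipocyte lipid carrier, had 0 and 73 counts, and Adipoq and Plin1 had 0 in both. The summed level of the neural list was 96.5 to 166 TPM over the 5 WT libraries and 66.4 to 90.9 over the 5 PERK −/− libraries, that of the epithelial list 21.7 to 42.5 and 28.6 to 46.4, and that of the adipocyte and chondrocyte list 20.9 to 40.9 and 42.4 to 66.3. The part of other cell types in these differences was not tested.

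Genes of growth and basal metabolism were close. Of 46 proliferation genes, Ccnd1, the cyclin of early G1, was lower (163 and 60.1 TPM), 0 were higher, and Top2a (187 and 155) and Pcna (766 and 831) were within 1.5-fold. None of 74 subunits of oxidative phosphorylation passed 2-fold, with a median of 0.15 that turned to −0.01 with TMM factors. Of 80 cytosolic ribosomal proteins, 60 lay below a ratio of 1 and Rpl34 alone was 2-fold lower; their median was −0.20 (−0.28 to −0.13). Of 41 translation factors, Eif4g3 was lower (11.1 and 3.83 TPM), and the median was −0.24 (−0.33 to −0.09). With TMM factors these medians moved further from 0, to −0.36 and −0.39. Their summed footprints were not stable within a genotype, however, since the 83 measured ribosomal protein symbols held 153186 TPM in the WT control and 121732 at the lowest WT value under Tg, and between 96368 and 161379 in PERK −/− libraries.

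Immediate-early genes, the first to respond to growth factors, went both ways, 3 of 31 higher (9.68%, against 6.04% of all genes) and 3 lower (9.68%, against 1.97%). Dusp5 (34 and 7.48 TPM), Dusp6 (37.2 and 18.2) and Fosl1 (102 and 47.7) were lower, which are targets of ERK signalling, and Id1 (38.7 and 93.8), Id2 (41.9 and 85.8) and Dusp1 (14.7 and 33.6) were higher. With the GC trend removed Id2 and Dusp1 were under 2-fold, Id2 also with TMM factors or DESeq2 size factors. Of the p53 list, 3 of 27 were higher (11.1%), which were Perp, a membrane protein of cell death (4.24 and 32.9 TPM), Sesn1 (3.68 and 12.6) and Trp53inp1 (5.88 and 16.0). Of 28 sterol genes Pmvk (37.0 and 99.6 TPM) alone passed 2-fold, with Hmgcs1, an early enzyme of sterol synthesis, at 371 and 441. Of 32 NRF2-linked genes, 3 were higher (9.38%), among them Gss, the last enzyme of glutathione synthesis (23.1 and 48.3 TPM), and Keap1, which holds NRF2 in check (11.8 and 24.3), both under 2-fold with TMM factors, DESeq2 size factors or the GC trend removed. Over all genes 6.04% were higher. The shares of these 3 lists (11.1% for p53, 3.57% for sterol and 9.38% for NRF2-linked genes) rest on 1 or 3 genes each. Of 22 glycolysis genes, Slc16a3, a lactate exporter (15.1 and 44.4 TPM), was higher (4.55%, against 6.04% of all genes) and Pfkfb3 (16.5 and 5.67) lower (4.55%, against 1.97%).

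Coordinates in GRCm38 were found for 99.3% of the genes. Over the autosomes and X, the median log2 ratio ran from 0 on chromosomes 12 and 18 to 0.22 on chromosome 7 (interval 0.18 to 0.28). It was −0.27 (−0.45 to −0.08) for the 13 genes of the mitochondrial genome, none of which was 2-fold apart, and −0.56 for 5 genes of the Y chromosome. The Tg pairs gave chromosome 7 medians of 0, −0.07, 0 and 0.02. In 134 windows of 20 Mb with at least 20 genes, medians ran from −0.27 to 0.40. Within 5 Mb of the start of Eif2ak3, 5 of 32 genes were higher (15.6%, against 6.04% of all genes) and 0 lower. They were Rpl34-ps1, Gng12 (46.0 and 112 TPM), 0610030E20Rik (5.79 and 15.9), Vamp8, a SNARE protein (58.6 and 119), and Capg, an actin-capping protein (52.9 and 131), and the median of the 32 was 0.26.

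The share of higher genes was larger at high GC content and at short coding length. Over 5 bins of GC content with equal numbers of genes it went, from the lowest to the highest bin, from 3.07% to 8.93%, and the median log2 ratio from 0 to 0.19. The Tg pairs had the opposite order of medians, for example 0.35 in the lowest and −0.14 in the highest bin at 8 h. With the GC trend removed, 443 genes were higher and 290 lower. Over 5 bins of coding length the share of higher genes went from 8.15% in the shortest to 3.56% in the longest. Genes encoding a hydrophobic N terminus, as in signal peptides that direct proteins to the ER, were more often on both sides. Of 1710 such genes 196 (11.5%) were higher and 61 (3.57%) lower, with a median of 0.20, against 4.93% and 1.62% of 8534 others, with a median of 0.07. Within the GC range of 50 to 55%, the shares of higher genes were 12.2% and 4.80%.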

How the data were processed

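Ribosome footprints of 13 libraries, 1 per condition, were deposited; the untreated PERK WT and PERK −/− MEF libraries were compared. The submitters' processing notes name STAR, RSEM and Bowtie2 and the mm10 build, with versions not given in the sources used here. The authors removed rRNA and tRNA reads, mapped the rest to RefSeq coding sequences clipped at both ends, and deposited expected counts per gene from RSEM (all whole numbers, not scaled between libraries) and TPM values, scaled within each library by RSEM. A TPM is a share of a library, so differences are relative to all other genes.

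TPM below 4 were raised to 4, the expression filter kept genes averaging 2 TPM or more across the 10 MEF libraries, and ratios of at least 2-fold were counted. Intervals have 95% confidence. Libraries held 2525029 to 14799515 expected counts. Spreadsheet software had changed 25 symbols to dates, which were left so. Coordinates came from RefSeq and GENCODE M21, GC content, lengths and proteins from GENCODE M21 transcripts, and promoters from RefSeq. A hydrophobic N terminus had, within 30 residues, a window of 8 whose Kyte-Doolittle hydropathy averaged 2.2 or more. Copies were found with blastn. Scripts used Python 3.11.15, pandas 2.3.3, scipy 1.17.1, statsmodels 0.14.6 and Biopython 1.88, and scaling factors came from edgeR 4.0.16 (TMM) and DESeq2 1.42.0 in R 4.3.3. The fold rule and intervals were checked on simulated data.

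The members and lists were chosen with earlier results of these data known. Named genes were Eif2ak3, list members past 2-fold, best covered or defining, the 15 highest and 15 lowest ratios among genes that reached 100 expected counts in a control and were 2-fold apart also in CPM, and differing genes within 5 Mb of Eif2ak3. Itgb3bp, Atp5s and Atp5sl were taken off lists, and the hydrophobic set, the genes near absent in a genotype, Irf7, Parp14, Oas3, Gbp4, Zbp1, Ifit3, Asns, Tdg-ps, Gm21451, Oas1g, Hspa1a, Apol9a, Cdh11 and their copies were added, after values were seen. A few list members are not reported here.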

Additional observations from a re-analysis of the deposited data

How the results depend on the processing

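With 1 library per condition no replicate could be left out and no replicates could be paired. The 630 higher and 205 lower genes stayed within 1.5 times these counts under 10 of 12 alternatives each, also with counts thinned to the smaller control (644 and 212) and without genes with a near-identical copy (598 and 193, chosen after seeing the data). A floor of 1 TPM gave 1024 and 369, and a 3-fold threshold 207 and 58, since it counts fewer genes by construction. TMM factors gave 470 and 289 and DESeq2 size factors 487 and 277. Depth limits genes near the floor: 786 genes were under 4 TPM in both controls and could not differ. Over the alternatives run for single genes (the floor of 1 TPM, TMM factors, DESeq2 size factors, CPM and the GC trend removed), 735 values moved by no more than the mean reach of the gene's counting interval to either side, or by 1 log2 unit where a control had 0 counts, 150 moved by more, and no gene past 2-fold changed direction. Among group medians whose interval left out 0, those that changed sign were those of the respiratory subunits, −0.00657 with TMM factors and −0.0130 with the GC trend removed, and of the histones, −0.0468 with the GC trend removed. The medians of 8 further groups, whose intervals did not leave out 0, also changed sign under at least 1 alternative. Among chromosome medians whose interval left out 0, those that changed sign with TMM factors were −0.0205 on chromosome 1, −0.00121 on 2, −0.0115 on 5 and −0.00783 on 10, with DESeq2 size factors −0.00419 on 1, and with the GC trend removed −0.0497 on chromosome 1, −0.0577 on 2, −0.0159 on 3, −0.00235 on 4, −0.0843 on 5, −0.0164 on 9, −0.0688 on 10, −0.0419 on 11, −0.0575 on 15, −0.0215 on 16, −0.0516 on 17 and −0.0729 on 19. Those of chromosomes 8, 13 and X, whose intervals reach 0, changed sign too. The causes were not tested.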
